A study of Homo sapiens with 24 samples.

Results

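A549 cells treated with Pirfenidone for 6 h were compared with A549 cells given PBS for the same time. Pirfenidone is an antifibrotic drug approved for idiopathic pulmonary fibrosis, and A549 is an established human lung adenocarcinoma line of alveolar epithelial origin. The comparison used 6 of the 24 samples of the series, chosen by their titles: 3 samples with 0.75 mg/ml Pirfenidone and 3 with the respective volume of PBS, the solvent. The remaining samples were A549 cells after 24 h and H1975 cells, a further lung adenocarcinoma line, after 6 h or 24 h, with 3 samples in each of the 8 groups. Each line carries its own fixed mutations, which treated and control samples share. Total RNA was measured on one-colour Agilent arrays, and the question was what the drug changes early, across all cell functions, before the 24 h time point.

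Values below are levels on a log2 scale, the processed signal of a probe over the 75th percentile of the array, so that a level of 0 lies at that percentile. A difference of 1 on this scale is a 2-fold difference. PBS replicate 1 and Pirfenidone replicate 1 were hybridised on the same slide, as were replicates 2 and 3, and the samples were therefore compared in these 3 pairs. Pirfenidone and PBS samples always took the same 2 places on their slide, so place and treatment cannot be told apart. The labels do not say that replicates came from separate cultures. The p-values rest on the spread over all 24 samples of the series, and that spread may then be only technical. On the 6 arrays, 62.9 to 65.3% of 34127 probes stood well above background and 0 were saturated. The number of arrays limits the precision of every value.

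The 6 samples carried the marks of an epithelial line. All 6 epithelial markers were detected on all 6 arrays, with KRT7 at levels of 7.47 to 7.64 and KRT18 at 6.90 to 7.07. The enzymes ALDH1A1, AKR1B10 and AKR1C1, for which A549 is known, lay between 4.03 and 7.13, above every level of theirs in H1975. Of 6 alveolar type II markers, SFTPC, ABCA3 and LAMP3 were detected, whereas SFTPB, SFTPA1 and NKX2-1 were above background on 0 of 6 arrays. CDKN2A, a gene A549 is known to have lost, was nonetheless well above background throughout, at -2.33 to -1.32, against 2.37 to 3.07 in H1975. Among fibroblast markers, COL1A2, DCN and PDGFRB were above background on 0 of 6 arrays, and COL1A1, LUM and THY1 were detected. The summed signal of the 5 leukocyte markers ranged from -0.68 to 0.11 with PBS and from -1.47 to -0.36 with Pirfenidone, ranges that overlapped, and CD3E was not detected. PTPRC and CD14 were detected on all 6 arrays and CSF1R on 4, and CD14 was lower with Pirfenidone in every pair, at -0.53 ± 0.25 (limma adjusted p = 0.418). The endothelial markers summed to -5.41 to -5.30 with PBS and -5.56 to -5.33 with Pirfenidone. The part of these markers in the results below was not tested.

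A further pair in the same fit stood apart. In A549 at 24 h, the Pirfenidone minus PBS differences of replicate 3 correlated with those of replicates 1 and 2 at -0.38 and -0.55 across probes, whereas replicates 1 and 2 correlated at 0.39. With the 6 h pairs, that pair correlated at -0.26, -0.24 and -0.36. The 6 h pairs correlated among themselves at 0.29, 0.35 and 0.44. These correlations run across probes, which are not independent replicates. Whether the labels of the arrays in that pair were exchanged, which would turn the sign of its values, was not tested, and the labels were kept. The 24 h samples enter the 6 h comparison through the shared estimate of the spread and through the choice of probes to test. Values at 24 h are given with and without the pair of replicate 3.

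Cells meet amino acid shortage, misfolded protein in the endoplasmic reticulum (ER) and other stresses by a common route, the integrated stress response. Stress kinases such as PERK phosphorylate the translation initiation factor eIF2, general protein synthesis slows, and the transcription factor ATF4 is made in larger amount. ATF4 then raises genes for amino acid synthesis, import and tRNA charging together with the factor CHOP. The unfolded protein response of the ER shares PERK and adds the sensors IRE1 and ATF6, which raise ER chaperones and the machinery that degrades misfolded ER proteins.

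At 6 h, 61 probes of 58 genes differed between Pirfenidone and PBS by at least 2-fold with an adjusted p of 0.05 or less (limma, Benjamini-Hochberg over 23827 probes), which is 0.256% of the probes tested. Of these, 40 were higher with Pirfenidone, 0.168% of the probes tested, and 21 were lower, 0.0881%. The genes that rose included the stress genes CHAC1, DDIT3, HERPUD1, ADM2, SESN2 and NUPR1, and those that fell included DGAT2, ZC3HAV1 and HSPA1A. At the same adjusted p without the 2-fold limit, 159 probes were higher, 0.667% of those tested, and 123 were lower, 0.516%. Such a probe is described below as changed by less than 2-fold. Most of the array did not move: the median log2 fold change of all tested probes was -0.01, and 93.5% lay within 0.5 of 0.

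All 61 probes moved the same way in all 3 pairs, and for 56 of them the 3 Pirfenidone samples lay wholly on one side of the 3 PBS samples, against 15.3% of all tested probes. The 61 were called on these same values, so both counts largely follow from that choice and are no separate support. Pair 3 gave the largest difference for 44 of the 61 probes and pair 1 the smallest for 41. Over all tested probes the SD of the differences was 0.34, 0.35 and 0.41 in pairs 1, 2 and 3. Only 40 of the 61 probes cleared background well on all 6 arrays, 26 of those higher and 14 lower. The count rested on the spread estimated from all 24 arrays: with the 6 arrays alone, limma called 0 probes, its smallest adjusted p being 0.109, although all 61 had an unadjusted p under 0.05 there. Without pair 2 or pair 3 the fit called 2 and 10 probes, and without the 24 h pair that stood apart it called 116, among them all 61.

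**Figure D1:**
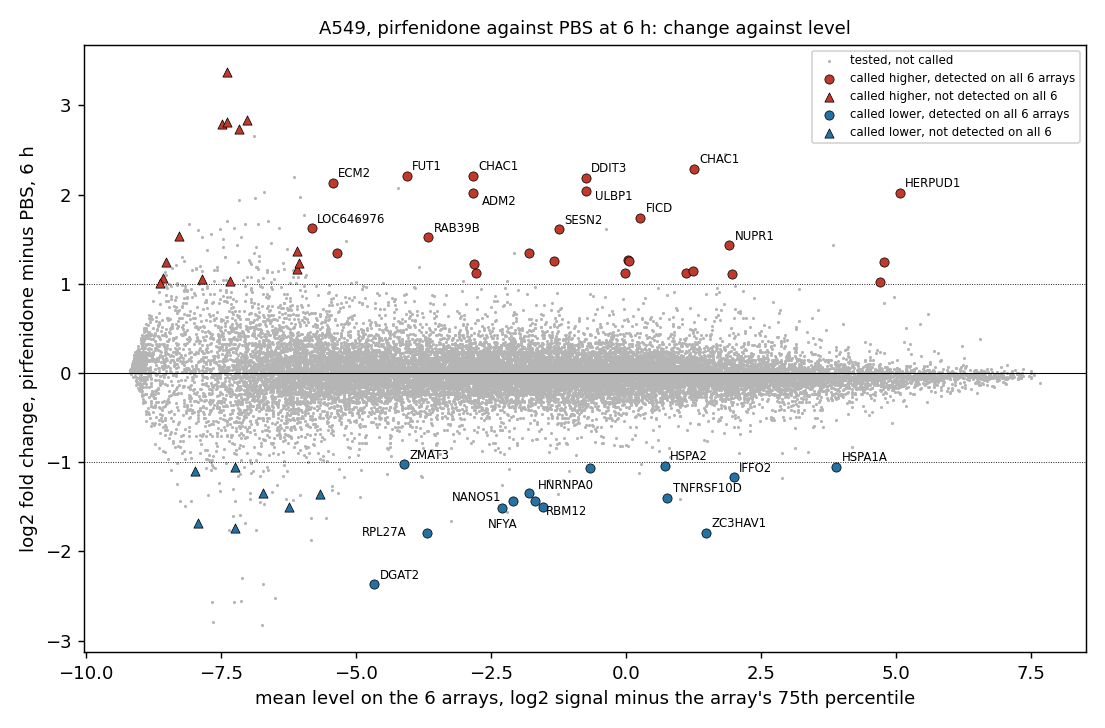
The log2 fold change of each of the 23827 tested probes (Pirfenidone minus PBS, A549, 6 h) against its mean level on the 6 arrays (log2 signal minus the array's 75th percentile). Circles are called probes detected on all 6 arrays and triangles called probes that were not, red for higher and blue for lower; the dotted lines mark 2-fold, and the 5 topmost triangles lie at the dim left edge.

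The rises of the integrated stress response list are given first. CHAC1, which breaks down glutathione, had levels of -3.55, -4.25 and -4.00 with PBS and -2.27, -1.71 and -1.20 with Pirfenidone in replicates 1, 2 and 3. Each Pirfenidone sample lay above every PBS sample, and the log2 fold change was 2.21 ± 0.32 (SE of the fit, n = 3 pairs, limma adjusted p = 0.0052), a 4.63-fold rise. Every SE given here comes from the spread over all 24 arrays of the fit, and does not measure the spread of these 3 pairs. A second CHAC1 probe rose by 2.29 ± 0.38. DDIT3, which encodes CHOP, read -1.77, -1.47 and -2.25 with PBS and -0.35, 0.31 and 1.13 with Pirfenidone. The groups did not overlap, and the paired differences of 1.42, 1.78 and 3.39 gave a log2 fold change of 2.19 ± 0.32 (limma adjusted p = 0.00529). SESN2, a sestrin that restrains the growth kinase mTORC1, stood at -1.79, -1.96 and -2.38 with PBS and at -0.88, -0.44 and 0.02 with Pirfenidone, a rise of 1.61 ± 0.30.

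NUPR1, a small stress-induced chromatin protein, had PBS levels of 1.01, 1.16 and 1.41 and Pirfenidone levels of 2.20, 2.66 and 3.01, a rise of 1.43 ± 0.20. ADM2, a secreted peptide hormone, rose by 2.02 ± 0.27 from -3.57, -3.97 and -4.00 to -1.80, -1.86 and -1.83. Its Pirfenidone samples lay within 0.06 of one another. A second ADM2 probe, at a different place on chromosome 22, changed by only 0.07 (adjusted p = 0.916). TRIB3, a pseudokinase induced by CHOP, rose by 1.24 ± 0.21, and STC2, a secreted glycoprotein, by 1.22 ± 0.25. For both, the groups were separate.

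Of the 21 genes on the list of the integrated stress response and ATF4 targets, 20 were tested, 7 were called higher (DDIT3, TRIB3, CHAC1, SESN2, NUPR1, ADM2 and STC2) and none lower. ASNS, asparagine synthetase, and JDP2, a partner of AP-1 and CHOP, rose by less than 2-fold, by 0.85 and 0.97. The median of the 20 was 0.94, with medians of 0.69, 0.97 and 1.27 in pairs 1, 2 and 3, and 19 of 20 were higher in all 3 pairs, against 23.2% of all tested probes. Several members missed the threshold, among them DDIT4 at 1.43 ± 0.37 (adjusted p = 0.0902), ATF3 at 0.91 ± 0.28 and ATF4 itself at 0.38 ± 0.12 (adjusted p = 0.151). ATF4 is controlled mainly at translation, which these arrays do not measure. GDF15 and CTH stood at 0.25 and 0.24, and PPP1R15A, the phosphatase subunit that reverses eIF2 phosphorylation, at 0.08.

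The response of the ER was led by HERPUD1, a membrane protein of ER-associated degradation. It had levels of 4.04, 4.29 and 3.85 with PBS and 6.01, 6.03 and 6.19 with Pirfenidone. Both groups were tight and far apart, and the log2 fold change of 2.02 ± 0.24 (limma adjusted p = 0.00235) corresponded to 4.06-fold. MANF, an ER-resident factor that is also secreted, rose by 1.02 ± 0.20 from 4.18, 4.23 and 4.19 to 5.36, 5.13 and 5.16. HSPA5, the main ER chaperone BiP, rose by 0.95 ± 0.18, just under 2-fold. DNAJB9, a co-chaperone of BiP, had the largest value of the list, 2.45 ± 0.57 with differences of 2.21, 2.19 and 2.93, but its adjusted p was 0.0593.

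Among the 19 tested genes of the list of ER chaperones and the unfolded protein response, 2 were called higher, HSPA5 passed under 2-fold and none was lower. The median was 0.64, and all 19 were higher in every pair, from CALR at 0.17 to DNAJB9 at 2.45. Unlike the ATF4 targets, the list was not largest in pair 3: its medians were 0.67, 0.49 and 0.55. Further genes of ER function outside the list were called higher, and are named after their values were seen. FICD, an enzyme that modifies BiP, rose by 1.74 ± 0.31 from -0.55, -0.76 and -0.49 to 1.23, 0.72 and 1.46. EIF2AK3, which encodes PERK, rose by 1.34 ± 0.23, SYVN1, the ubiquitin ligase of ER-associated degradation, by 1.11 ± 0.16, and HSPA13, a microsomal chaperone, by 1.12 ± 0.15.

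Genes that handle amino acids moved by smaller amounts. GPT2, the mitochondrial alanine aminotransferase, rose by 1.12 ± 0.13 (limma adjusted p = 0.00235) from -0.44, -0.58 and -0.69 to 0.43, 0.62 and 0.61. SLC1A4, a carrier of neutral amino acids, rose by 1.12 ± 0.22 from -3.12, -3.25 and -3.64 to -2.15, -2.06 and -2.46. In both genes the lowest Pirfenidone sample was above the highest PBS sample. Among 12 genes of serine, glycine, proline and one-carbon synthesis, GPT2 was called and MTHFD2, PSAT1 and PSPH rose by less than 2-fold, by 0.94 ± 0.09, 0.78 ± 0.16 and 0.62 ± 0.10. MTHFD2 is the mitochondrial folate enzyme, and PSAT1 and PSPH make serine. The list had a median of 0.47, and PHGDH, the first enzyme of the serine route, missed the threshold at 0.88 ± 0.23 (adjusted p = 0.0895).

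Of 11 amino acid transporters tested, SLC1A4 was called and SLC7A1 and SLC1A5 rose by 0.44 ± 0.10 and 0.38 ± 0.08, with a list median of 0.44. None of the 20 cytosolic aminoacyl-tRNA synthetases, which load tRNAs with amino acids, reached 2-fold. Some of them rose by less: CARS1 by 0.66 ± 0.09, GARS1 by 0.65 ± 0.11, AARS1 by 0.60 ± 0.07 and YARS1 by 0.32 ± 0.07. The AARS1 differences were 0.58, 0.62 and 0.61, nearly the same in each pair. The median of the 20 was 0.16, 11 were higher and 6 lower in every pair, against 23.2% and 29.5% of all tested probes, and the lowest was HARS1 at -0.24. PCK2, the mitochondrial form of phosphoenolpyruvate carboxykinase, was on no list, and rose by 1.25 ± 0.24 at one probe and 0.95 ± 0.20 at the other.

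Promoters of the genes that rose were searched for the element TGATGNAA, which ATF4 binds together with C/EBP proteins. RefSeq promoters of build GRCh38.p14 were used, each from 250 bases before to 50 after the start of a gene, and both strands were read. Of the 39 genes called higher 31 had a promoter, and 6 of them (19.4%) held the element: CHAC1, FUT1, HERPUD1, IL21R, SLC1A4 and TMEM154. The called TMEM154 probe was well above background on 0 of the 6 arrays, and that of IL21R on 0 of 3 PBS arrays. Of 16 promoters of genes called lower 0 held it, and over all genes with a promoter 4.46% did, or 3.62% of 35116 promoters. The following stretches show the element in 4 genes called higher and in ASNS, in capitals, with 16 bases on each side, 5′ to 3′ on the strand of the gene. They lie at chr15:40953246-40953285 (CHAC1, plus strand), chr19:48755454-48755493 (FUT1, minus), chr16:56931950-56931989 (HERPUD1, plus), chr16:27427137-27427176 (IL21R, plus) and chr7:97872453-97872492 (ASNS, minus).
CHAC1: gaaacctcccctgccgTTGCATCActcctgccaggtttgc
FUT1: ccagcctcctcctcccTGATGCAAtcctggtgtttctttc
HERPUD1: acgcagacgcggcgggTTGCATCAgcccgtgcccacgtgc
IL21R: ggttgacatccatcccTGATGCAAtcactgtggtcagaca
ASNS: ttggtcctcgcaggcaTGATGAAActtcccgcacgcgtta

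In CHAC1 and HERPUD1 the element is read on the opposite strand, so that it appears as its reverse complement. All of the first 4 genes hold the same 8 bases, TGATGCAA on one strand or the other, and ASNS differs in the variable base. The match in FUT1 also lies in the promoter of FGF21, its neighbour on the opposite strand of chromosome 19. FGF21, a hormone induced by ATF4, was too dim to be tested, above background on 1 of the 6 arrays, with differences of 1.09, 1.06 and 3.14. The element was found in 6 of 19 promoters (31.6%) of the integrated stress response list, 5 of 10 (50%) of the amino acid transporters and 7 of 16 (43.8%) of the tRNA synthetases. The latter 7 included AARS1, CARS1 and GARS1, which rose, and also IARS1 at 0.21, NARS1 at 0.23, TARS1 at 0.13 and MARS1 at 0.06, which missed the threshold.

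A different element, the ER stress response element, is CCAAT, 9 bases and CCACG, and is bound by NF-Y and ATF6. It was searched after the values were seen and is rare, in 0.0769% of promoters. FICD was the 1 gene called higher that held it, 3.23% of those with a promoter. It stood in 7 of 18 promoters (38.9%) of the ER list: HSPA5, HSP90B1, PDIA6, CALR, CANX, XBP1 and CRELD2. None of these 7 was called at 2-fold, and their log2 fold changes ran from 0.17 to 0.95. The 2 stretches below show it in FICD (chr12:108515107-108515157, plus strand) and HSPA5 (chr9:125241375-125241425, minus strand), with CCAAT and CCACG in capitals.
FICD: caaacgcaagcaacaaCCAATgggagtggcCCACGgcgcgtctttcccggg
HSPA5: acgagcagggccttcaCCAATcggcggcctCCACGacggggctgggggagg

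Other elements were counted in the same way. The core of the dioxin response element, TNGCGTG, was in 9.68% of the genes called higher that had a promoter against 6.69% of all genes with one. The AP-1 element TGANTCA was in 6.45% against 9.37%, and TGANNNNGC of the antioxidant response in 45.2% against 47.1%, with 56.2% of the genes called lower. A match is a description of the letters in this window.

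**Figure D2:**
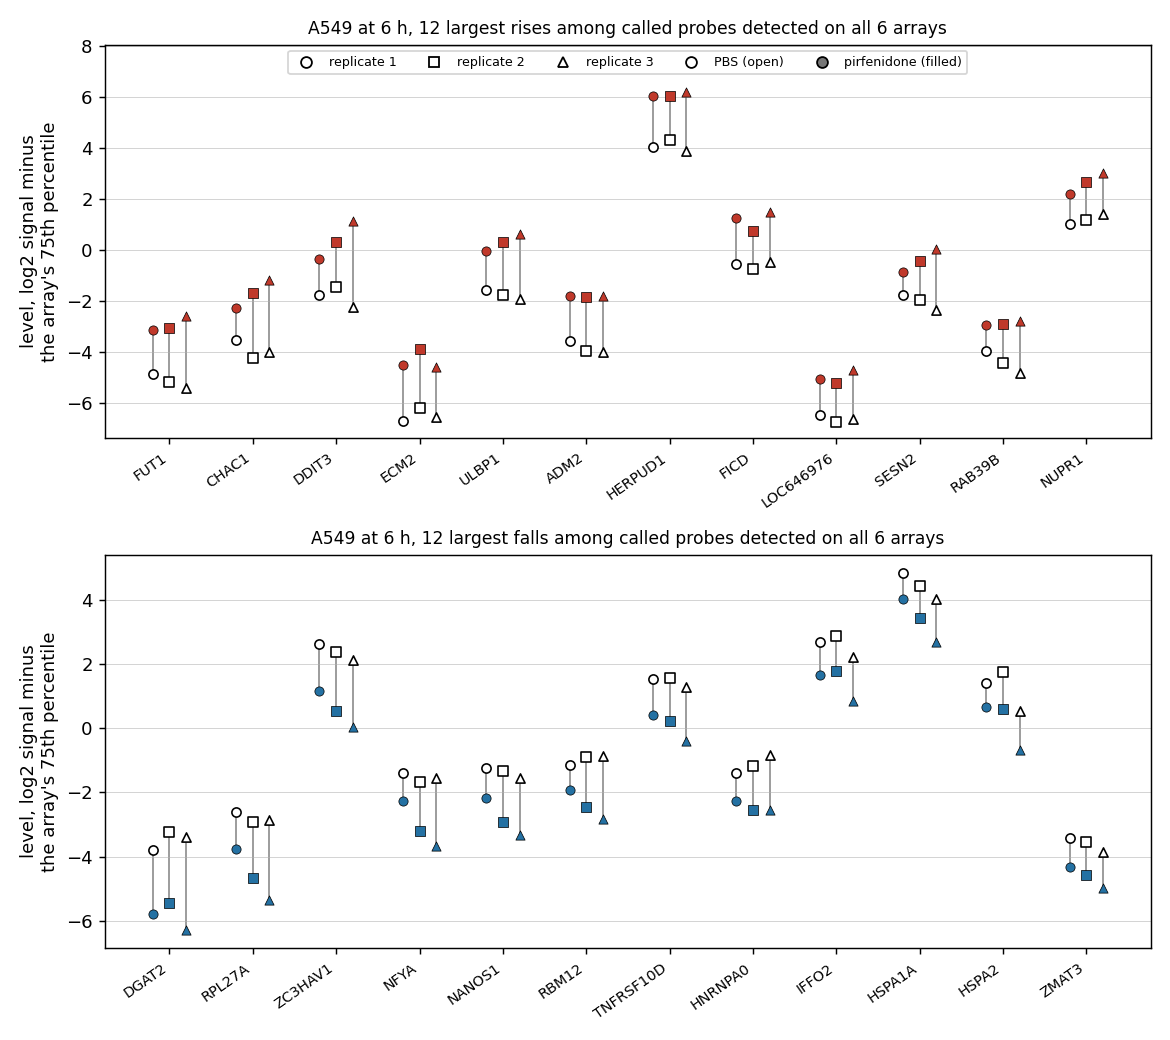
Levels (log2 signal minus the array's 75th percentile) of the 12 largest rises (upper panel) and the 12 largest falls (lower panel) among called probes detected on all 6 arrays. Open symbols are PBS, filled symbols Pirfenidone, the shape gives the replicate, and a line joins the 2 samples of a slide; in the lower panel every line is longest in replicate 3.

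Several of the largest rises were of genes on none of the lists, and whether they belong to the same responses was not tested. FUT1, the fucosyltransferase that makes the H blood group antigen, had levels of -4.87, -5.20 and -5.41 with PBS and -3.15, -3.09 and -2.61 with Pirfenidone. The groups did not overlap, and the rise was 2.21 ± 0.30 (limma adjusted p = 0.00418). ULBP1, a stress ligand of the receptor NKG2D on natural killer cells, rose by 2.04 ± 0.29 from -1.60, -1.76 and -1.94 to -0.07, 0.28 and 0.62. A second, dimmer ULBP1 probe gave 2.20 ± 0.65 (adjusted p = 0.14). RAB39B, a small GTPase of vesicle traffic, rose by 1.52 ± 0.31, and LOC646976, an uncharacterised locus, by 1.62 ± 0.30.

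ECM2, named for an extracellular matrix protein, rose by 2.13 ± 0.31 at one probe, from -6.70, -6.20 and -6.57 to -4.54, -3.91 and -4.61. Both other ECM2 probes were above background on 0 of 6 arrays. Further rises, named after their values were seen, were FBXO16, an F-box protein, by 1.27 ± 0.16, and RWDD2A by 1.25 ± 0.26. TSC22D3, the glucocorticoid-induced leucine zipper, rose by 1.14 ± 0.25.

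A set of called rises came from probes that PBS samples did not measure. ATP13A4, VWDE, IL21R, C2orf66 and DRD5 were well above background on 0 of 3 PBS arrays and on 3 of 3 Pirfenidone arrays, and their fitted folds are therefore no measure of size. Against the dimmest signal that was well above background on each PBS array, they were at least 2.24-fold, 2.41-fold, 1.85-fold, 1.72-fold and 2.08-fold higher. For VWDE, a second and brighter probe detected on all 6 arrays gave 0.25 (adjusted p = 0.941). The reverse held for APLN, the peptide apelin, which was detected on 3 PBS and 0 Pirfenidone arrays and was at least 2.06-fold lower. CFAP92, CU678159, TMEM154 and HCP5 were called but were above background on none of the 6 arrays, and no fold is given for them.

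Among the falls, DGAT2, which catalyses the last step of triglyceride synthesis, was lowered most. Its levels were -3.80, -3.23 and -3.39 with PBS and -5.79, -5.45 and -6.30 with Pirfenidone. The samples were well separated, and it fell by 2.37 ± 0.33 on the log2 scale, or 5.17-fold (limma adjusted p = 0.0043). The other lipid droplet and PPAR target genes did not follow: DGAT2 was the 1 member of 10 called and the list median was 0. TNFRSF10D, a decoy receptor for the death ligand TRAIL, fell by 1.40 ± 0.16 from 1.54, 1.56 and 1.30 to 0.40, 0.22 and -0.41. IFFO2, an intermediate filament family member, fell by 1.17 ± 0.23.

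ZC3HAV1, an antiviral zinc finger protein, had levels of 2.61, 2.39 and 2.13 with PBS and 1.17, 0.54 and 0.05 with Pirfenidone. It fell by 1.79 ± 0.15 (limma adjusted p = 0.000165), with the groups far apart. This probe lies at chr7:138728351-138728410 of hg19, whereas a second probe at chr7:138745443-138745502, matched to another transcript, stood at -0.23 ± 0.15 (adjusted p = 0.612). NFYA, a subunit of the CCAAT-binding factor NF-Y, fell by 1.51 ± 0.22 at one probe and stood at -0.27 ± 0.08 (adjusted p = 0.124) at the other. For PCGF3, a Polycomb protein, a dim probe fell by 1.36 ± 0.16 and a brighter one stood at 0.37.

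RBM12, an RNA-binding protein, fell alike at both of its probes, by 1.43 ± 0.19 and 1.50 ± 0.22, with Pirfenidone levels of -1.93, -2.45 and -2.82 at the former against -1.15, -0.91 and -0.86 with PBS. HNRNPA0, which binds AU-rich messenger RNA, fell by 1.34 ± 0.14 and 1.06 ± 0.16 at its probes. NANOS1, a repressor of translation, fell by 1.44 ± 0.19, and ZMAT3, a zinc finger protein induced by p53, by 1.02 ± 0.17. ZMAT3 was the 1 member called among 22 p53 targets, whose median was 0.01. The probe labelled RPL27A, a ribosomal protein, fell by 1.79 ± 0.27, from -2.62, -2.93 and -2.86 to -3.77, -4.67 and -5.34. All its levels were negative, far below those of KRT7. Whether this probe reads the main RPL27A messenger RNA was not tested, so the fall is given for the probe only. All 14 detected falls, including every gene just named that was above background on all 6 arrays, were largest in pair 3 and smallest in pair 1.

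Cytosolic heat shock proteins went the opposite way from the ER chaperones. HSPA1A, the inducible HSP70, had levels of 4.85, 4.42 and 4.03 with PBS and 4.03, 3.42 and 2.70 with Pirfenidone. The groups touch, since PBS replicate 3 and Pirfenidone replicate 1 are equal to 2 decimals, but each pair fell, by 0.82, 1.01 and 1.33, and the log2 fold change was -1.05 ± 0.22 (limma adjusted p = 0.0342). HSPA1B, a near-identical copy whose signal may be shared, fell by 0.90 ± 0.19, HSPA8, the constitutive form, by 0.92 ± 0.14, and DNAJB1, the partner of HSP70, by 0.54 ± 0.11, all by less than 2-fold. HSPA2, a related member outside the list, fell by 1.04 ± 0.13 with overlapping groups. In the list of 13, 1 was called lower, the 3 others named passed under 2-fold, none was higher, and the median was -0.16. All 13 had log2 fold changes of -0.03 or lower, 11 were lower in every pair, against 29.5% of all tested probes, and HSP90AA1, BAG3 and CRYAB stood at -0.11, -0.03 and -0.03.

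**Figure D3:**
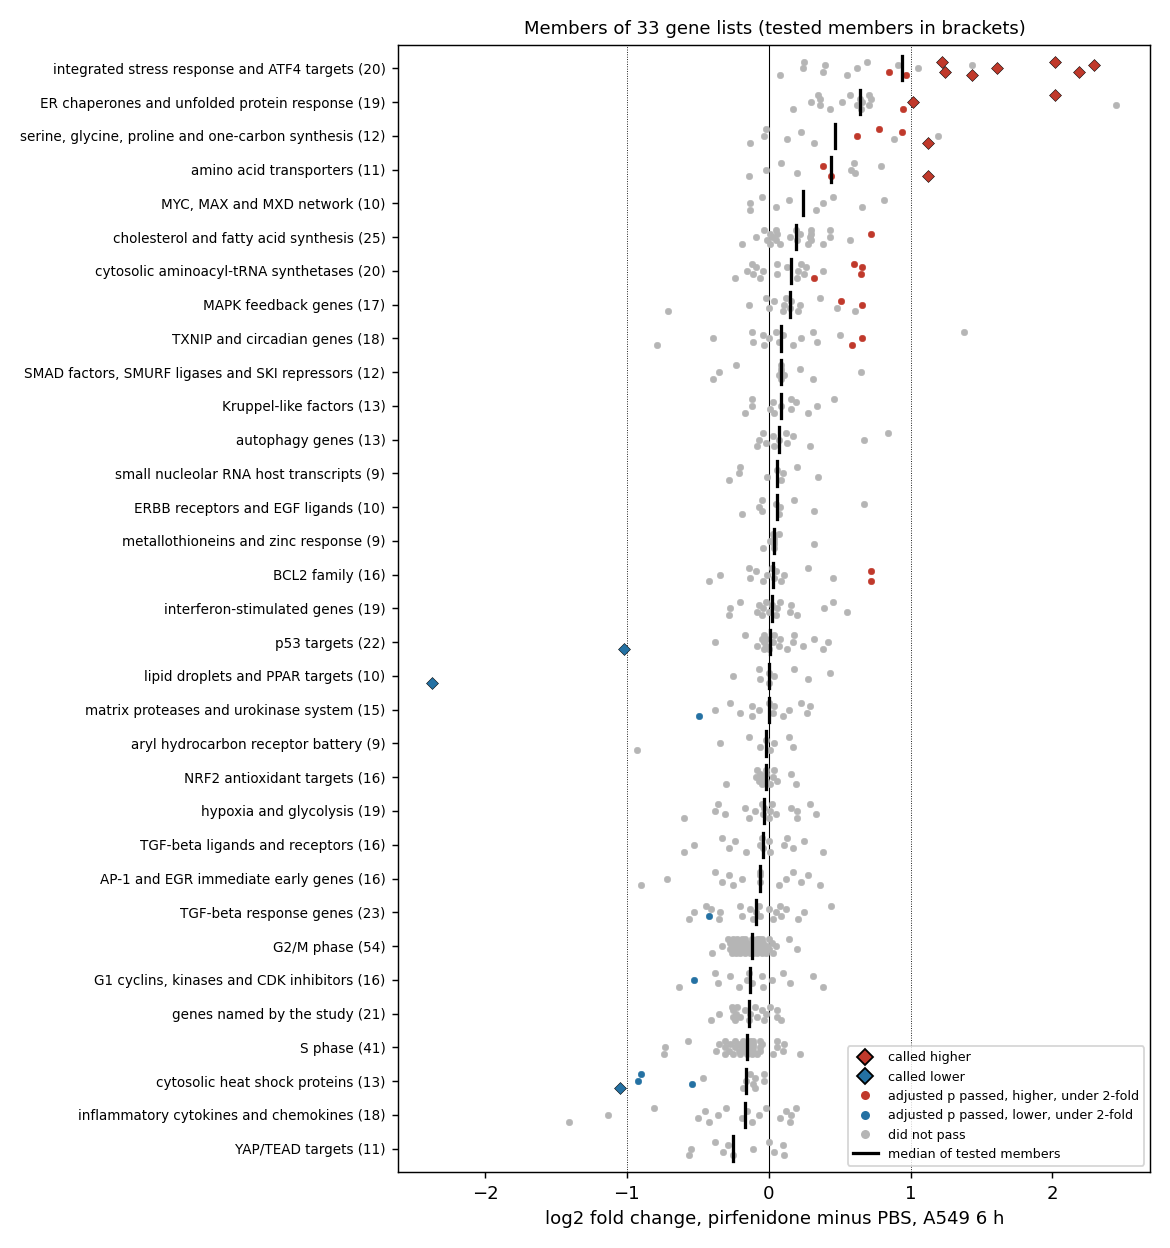
Log2 fold change (Pirfenidone minus PBS, A549, 6 h) of each tested member of 33 gene lists, ordered by list median (black bar). Diamonds were called at 2-fold, coloured dots passed the adjusted p under 2-fold and grey dots did not pass; the lists of the integrated stress response (median 0.94) and of ER chaperones (0.64) lie furthest to the right.

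In all, 33 lists with 556 tested genes were examined, of which 7 lists held a called member and 15 a member past the adjusted p at any size. Without the 24 h pair that stood apart the latter number was 26, and 15 genes of the integrated stress response and 14 of the ER list passed, all higher. Cell cycle genes moved little by 6 h. None of 41 S phase and 54 G2/M genes passed in limma, with 1 of each at an unadjusted p under 0.05 and medians of -0.15 and -0.12, although 32 and 38 of them were lower in every pair, against 29.5% of all tested probes. The lowest p in each belonged to CCNE2 at -0.73 (adjusted p = 0.155) and E2F8 at -0.74, and to CTCF and TUBB4B at -0.27 and -0.33. Among G1 regulators, CCNE1, the cyclin that opens S phase, fell by 0.53 ± 0.10, and CDKN1B, a CDK inhibitor, stood at 0.31 (adjusted p = 0.193).

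Regulators of cell death and of signalling gave single genes. In the BCL2 family, PMAIP1 and BBC3, the pro-apoptotic factors NOXA and PUMA, rose by 0.72 ± 0.10 and 0.72 ± 0.15, and the median of 16 was 0.03. ETV1 and ETV5, transcription factors raised by MAPK signalling, rose by 0.51 ± 0.10 and 0.66 ± 0.14 among 17 MAPK feedback genes. Of 18 genes of the circadian clock and the TXNIP group, PER1 and NR1D2, both clock repressors, rose by 0.66 ± 0.10 and 0.59 ± 0.11. STARD4, a sterol carrier, rose by 0.72 ± 0.12 among 25 genes of cholesterol and fatty acid synthesis, in which HSD17B7 stood at 0.38 (adjusted p = 0.0634) and the median was 0.19.

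The TGFβ pathway, which the study set out to examine, gave small differences. TGM2, a transglutaminase, fell by 0.42 ± 0.09 (adjusted p = 0.0339) among 23 TGFβ response genes, whose median was -0.09, and THBS1 stood at -0.53 (adjusted p = 0.0933). Among 16 ligands and receptors none passed, though 4 had an unadjusted p under 0.05, with TGFB2 at -0.60 ± 0.14 (adjusted p = 0.0593) and BMPR1A at 0.25. In the SMAD list none passed, though 5 of 12 had an unadjusted p under 0.05, with SMAD9 at 0.65 and SMAD3 at -0.35. Without the 24 h pair that stood apart, these passed at 6 h with the same values: TGFB2 (adjusted p = 0.0223), BMPR1A (0.0423), SMAD9 (0.0431), SMAD3 (0.0452), and SERPINH1 (0.017) and CCN2 (0.0413) of the response genes. TGM2 in turn passed in 6 of the 24 settings tried, and missed without the replicate block and without any 1 of the 6 arrays. Other genes given in this report as changed passed in few settings too. ASNS, SLC7A1, SLC1A5, YARS1, IFFO2 and PLAU passed in 8 of 24. HSPA1A, HSPA1B, CCNE1, ETV5, BBC3, PSAT1 and STC2 passed in 9, whereas ZC3HAV1 passed in 22. PLAU, the protease urokinase, fell by 0.49 ± 0.10 among 15 matrix proteases, and PLAT stood at 0.29. YAP/TEAD targets had a median of -0.25, with CCN2 at -0.56 (adjusted p = 0.109) and F3 at -0.32, and none passed over all arrays.

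A list of 21 genes was taken from those measured by other methods or discussed for this drug, and at 6 h limma called 0 of them, with 3 at an unadjusted p under 0.05. Their log2 fold changes ran from -0.41 to 0.09 with a median of -0.14, and 14 were lower and 0 higher in every pair, against 29.5% and 23.2% of all tested probes. SERPINH1, the collagen chaperone, stood at -0.41 ± 0.11 (adjusted p = 0.109), SMAD2 at -0.23 and TGFB1 at -0.05. COL1A1 stood at 0.09, and BAMBI, a decoy receptor, at 0.01. The mitotic genes AURKA, SPC25, MKI67, CDC20, BUB1B, BUB3, MAD2L1, AURKB and BUB1 lay between -0.26 and -0.02, BIRC5 at -0.17, and CHEK1 at 0.06. PARP1, a DNA repair enzyme, stood at 0.06, and CD274, the checkpoint ligand, at -0.25.

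In the other lists no member passed, and their medians lay between -0.17 and 0.24. The lowest p values belonged to CYP1A1 (-0.93, adjusted p = 0.219) and UGT1A6 (-0.34) of the aryl hydrocarbon receptor battery, HMOX1 (-0.30) and OSGIN1 (0.19) of the NRF2 targets, and MT1F (0.32) and MT1A (0.07) of the metallothioneins. CCL2, a chemokine, had differences of -1.12, -1.31 and -1.80 and a value of -1.41 ± 0.38, but an adjusted p of 0.0998, with CXCL5 at -0.42. EGR4, above background on none of the 6 arrays, and SRF stood at -0.90 and -0.33. Among the growth regulators, KLF3 and KLF4 stood at 0.34 and 0.46, ERBB3 and ERRFI1 at 0.67 and 0.32, and MNT and MXI1 of the MYC network at 0.45 and 0.66. ADM and PFKFB3 of the hypoxia list stood at -0.60 and -0.38, IFIT1 and IRF1 of the interferon list at 0.55 and -0.28. The autophagy genes ULK1 and NBR1 stood at 0.67 and 0.29, and the host transcripts GAS5 and EPB41L4A-AS1 at 0.35 and 0.20.

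The values at 24 h were set beside these. Over all 3 pairs limma called 9 probes in A549 at 24 h, 0.0378% of those tested, and 178 without the pair that stood apart, 0.747%. None of the 61 probes was among the 9. The 40 probes that were higher at 6 h had a median of -0.05 at 24 h, with 0.23, 0.51 and -0.65 in pairs 1, 2 and 3 and 0.37 without pair 3. Those that were lower had a median of -0.10, with -0.26, -0.30 and 0.37 by pair and -0.25 without pair 3. Over all pairs, 18 of the 40 and 14 of the 21 pointed the way they did at 6 h. Without pair 3, which ran against the 6 h pairs across probes, the counts were 33 and 16. The share of all tested probes that agreed in this way was not computed, so these counts do not set the 61 apart. Without pair 3, 1 of the 61 was called again, DGAT2 at -1.18 (limma adjusted p = 0.0108). HERPUD1 stood at 0.07 over all pairs and at 0.62 (adjusted p = 0.0245) without pair 3, and DDIT3 at -0.13 and 0.02.

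The difference between the changes at 24 h and at 6 h was tested itself. It passed at 2-fold for 9 probes, 0.0378% of those tested, and for 24 without the 24 h pair of replicate 3, 0.101%. Of the 61 probes 4 passed over all pairs, those of ZC3HAV1, HNRNPA0, PCGF3 and APOBEC3D. Without the pair 5 passed, those of HERPUD1 (-1.40, limma adjusted p = 0.0153), FUT1 (-1.88, adjusted p = 0.04), ZC3HAV1, PCGF3 and APOBEC3D. Of these 5 changes, 4 were closer to 0 at 24 h in the same direction, whereas APOBEC3D turned from 1.16 to -0.88 (adjusted p = 0.0393). The 61 probes were chosen for large changes at 6 h, and this test uses the same 6 h values. Smaller changes at 24 h can therefore follow in part from that choice. The probe of APOBEC3D was dim, well above background on 1 of 3 PBS arrays at 6 h. For HNRNPA0 the adjusted p without the pair was 0.0662.

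In H1975, the changes at 6 h were compared by slide, since replicate numbers there do not share one. Limma called 215 probes, 0.902% of those tested, and 16 of the 61 A549 probes were among them, all in the same direction. The 14 that rose again were the probes of CHAC1 (both), DDIT3, ADM2, SESN2, NUPR1, TRIB3, HERPUD1, ULBP1, ECM2, SLC1A4, PCK2, CCNG2 and IL21R. TSC22D3 lay just under the 2-fold limit there. Both RBM12 probes fell again, by 1.11 and 1.29. The median of the probes called higher in A549 was 0.81 in H1975, with 0.95, 0.72 and 0.85 on the 3 slides, and that of the probes called lower was -0.45.

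The line test, H1975 change minus A549 change, passed at 2-fold for 58 probes, 0.243% of those tested, and for 2 of the 61, those of ZC3HAV1 and ATP13A4. ZC3HAV1 stood at -0.15 in H1975, a difference of 1.64 ± 0.21 from A549 (limma adjusted p = 0.00464). FUT1 stood at 0.18 in H1975, and that difference missed the threshold at -2.03 ± 0.43 (adjusted p = 0.0683). CHAC1 rose in H1975 by 3.20 and 3.30 at its probes, DDIT3 by 2.08 and HERPUD1 by 1.41, and the differences of these from A549 did not pass.

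By list, the integrated stress response had a median of 1.28 in H1975 at 6 h, with 14 members called higher, against 0.94 and 7 in A549. More probes were called in H1975 altogether, 0.902% of those tested against 0.256% in A549, so the 2 counts do not compare the strength of the list. In A549 at 24 h its median was -0.10, with 0.06, 0.23 and -0.58 by pair and 0.21 without pair 3. The ER list had a median of 0.25 in H1975 with 1 member called, and in A549 at 24 h a median of 0.07 over all pairs and 0.38 without pair 3. HSPA5 and MANF stood at 0.31 and 0.21 in H1975, and their differences from A549 missed the threshold (adjusted p = 0.535 and 0.417). The cytosolic heat shock list had a median of -0.02 in H1975 and -0.02 in A549 at 24 h, or -0.08 without pair 3, with 0 members called in H1975.

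**Figure D4:**
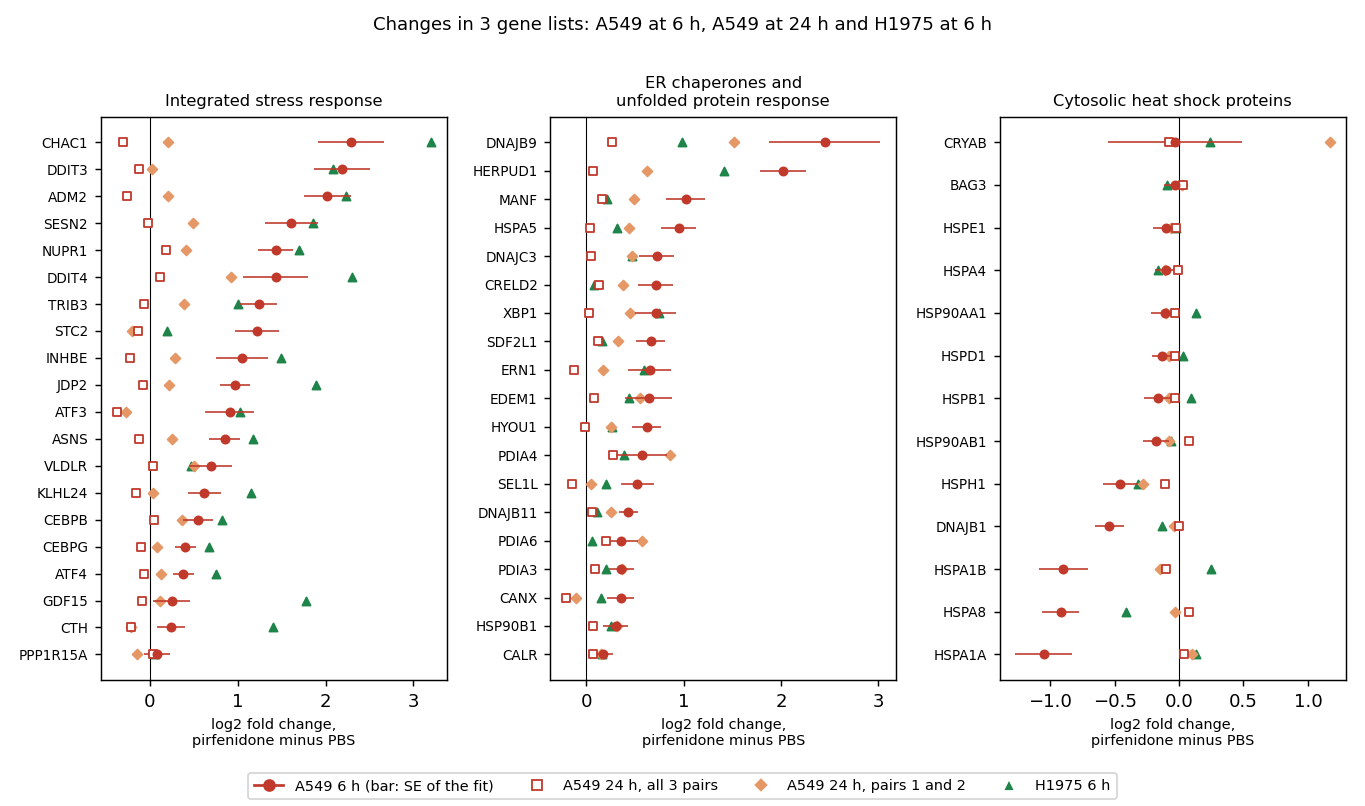
Log2 fold changes (Pirfenidone minus PBS) of the tested members of 3 lists in A549 at 6 h (red circles, bars are the SE of the fit), A549 at 24 h over all 3 pairs (open squares) and over pairs 1 and 2 (orange diamonds), and H1975 at 6 h (green triangles). In the left panel most triangles and circles lie to the right of the 24 h symbols; in the right panel HSPA1A, HSPA8 and HSPA1B lie near -1 in A549 at 6 h and closer to 0 elsewhere.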

How the data were processed

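The labels' protocols state RNeasy extraction, one-colour Cy3 labelling with the Low Input Quick Amp kit and Agilent arrays. The deposited scanner files hold intensity values, which the authors produced with Agilent Feature Extraction 11.5.1.1. Of its columns, the processed signal (background corrected, per the file headers) was used, without control spots and outlier flags. It was put on the log2 scale, each array's 75th percentile was subtracted, and spots of a probe were averaged. The authors' deposited table of log2 values, whose probes are centred on their median, served as an alternative; its differences between arrays correlated with the above at 1. Symbols came from the files, and 26377 of 34127 probes were matched to RefSeq by accession, which gave 1974 of them another current symbol. Probe positions are those of the files (hg19).

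A probe was tested if 1 or more of the 8 groups had it well above background on each array (23827 probes). Limma 3.58.1 in R 4.3.3 was fitted on all 24 arrays with the slide as a block, which in A549 is the replicate number, with 11 residual degrees of freedom. Called means an adjusted p of 0.05 or less (Benjamini-Hochberg over all probes tested) and a 2-fold change. The model was tested on simulated data. The pairing comes from the shared slides: Pirfenidone and PBS samples of one number deviated together from their group means (r = 0.70, 0.58 and 0.64), and those of different numbers did not (-0.11 to -0.47). The latter values are negative in part by construction, since deviations from a group mean cancel out within the group. The study's methods adjust by permutation, which 3 arrays against 3 cannot bring to the threshold.

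The comparison, the gene lists and the tests were chosen with earlier results of these data known. By the rule for naming genes, the 12 largest rises and falls among called probes detected on all 6 arrays, list members whose brightest probe was called, the 2 members of lowest p in a list with none, and the genes named by the study are given; others are said to have been named after their values were seen. Some members of the lists are not reported here by name. A fold against a group not above background on any array is a lower bound, computed against the dimmest signal well above background on each array. Promoters came from RefSeq (GRCh38.p14).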

Additional observations from a re-analysis of the deposited data

Results flagged for a closer look

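These results are given because the change in A549 at 6 h differed from that at another time or in the other line by limma's test of the difference itself (adjusted p of 0.05 or less and 2-fold); all values are log2. The change at 24 h minus that at 6 h was 1.65 for ZC3HAV1 (adjusted p = 0.0171), 1.30 for HNRNPA0 (0.0429) and 1.46 for PCGF3 (0.0401), whose probes fell at 6 h and stood at -0.14, -0.03 and 0.10 at 24 h. Other probes of ZC3HAV1 and PCGF3 stood at -0.23 and 0.37 at 6 h (adjusted p = 0.612 and 0.0517). It was -1.96 for APOBEC3D (adjusted p = 0.00754), a cytidine deaminase that rose by 1.16 at 6 h and stood at -0.80 at 24 h, and -1.03 for MTHFD2 (0.0177). The APOBEC3D probe was dim, well above background on 1 of 3 PBS arrays at 6 h. Without the 24 h pair of replicate 3, ZC3HAV1, PCGF3 and APOBEC3D passed again at 1.60, 1.25 and -2.04, HNRNPA0 missed at 1.09 (adjusted p = 0.0662), and MTHFD2, at -0.96, was under 2-fold.

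The H1975 change minus the A549 change at 6 h was 1.64 for ZC3HAV1 (adjusted p = 0.00464) and -4.10 for ATP13A4 (0.0235). The latter is a fitted value and no measure of size, since its probe was above background on 0 of 3 A549 PBS arrays, and its H1975 differences by slide were -0.20, 0.58 and -2.54. For members of the lists that were not called in A549, it was 1.54 for GDF15 (adjusted p = 0.0486) and 1.16 for CTH (0.0399), ATF4 targets that stood at 0.25 and 0.24 in A549 and at 1.78 and 1.40 in H1975. ANKRD37 and SLC2A3 of the hypoxia list differed by 1.09 (adjusted p = 0.00568) and 1.39 (0.0281), ID2 by 1.11 (0.00289) and IL24, a cytokine, by -1.46 (0.0157). In A549 those 4 genes stood at 0.16, -0.36, -0.07 and 0.16. What lies behind these differences was not tested.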

How the results depend on the processing

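The 30 called probes for which the alternatives were run, those that the rule for naming genes gives, kept their direction in each, and so did the median of the integrated stress response list (0.76 to 1.15) and of the ER list (0.49 to 0.69). The counts moved more, and the cause was not tested except where fewer samples or a stricter rule make it plain. The 61 probes called at 6 h (40 higher, 21 lower) became 2 (1 and 1) with the 12 A549 arrays alone. With the 6 arrays compared alone limma called 0 (0 and 0), both with the replicate block and without it, where 159 and 140 probes had an unadjusted p under 0.05 at 2-fold. The count was 19 (14 and 5) after normexp background correction, 7 (3 and 4) under Holm adjustment and 282 (159 and 123) without a fold limit. It was 116 (67 and 49) without the A549 24 h pair of replicate 3, with all 61 shared. The methods name a moderated test, to which limma on the 6 arrays comes nearest, and a plain paired test there gave 84 (52 and 32) unadjusted and 0 (0 and 0) after Benjamini-Hochberg. Without the replicate block the count was 42 (28 and 14), of which 39 were shared, and among the named genes LOC646976, SESN2, NUPR1, HSPA2, HSPA1A, IFFO2 and STC2 lost their call. Leaving out 1 array or 1 pair gave 2 to 73 probes in all, 0 to 42 higher and 2 to 34 lower, with the spread shared by all groups. The lowest counts were those without replicate 2 (2 probes; 0 higher in limma, 140 at an unadjusted p) and replicate 3 (10), and the single arrays that lowered the count over 1.5 times were those of replicates 2 and 3 (26 to 33). ZC3HAV1 kept its call without any 1 pair.

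The 9 probes of the 24 h minus 6 h test became 37 with the slide as a random block, 1 with the 12 A549 arrays, 2 with probes above background on all 24 arrays, 1 under Holm, 4 over probe means of a gene and 24 without the 24 h pair of replicate 3. After normexp limma called 0 there (43 at an unadjusted p, smallest adjusted p 0.0597). Leaving out arrays gave 1 to 21. The 58 probes of the line test became 8 without the replicate block, 8 after normexp, 33 with probes above background on all 24 arrays, 8 under Holm, 94 without a fold limit and 86 without the 24 h pair of replicate 3, and leaving out arrays gave 14 to 45. Among these 30 probes, values that fell over 1.5 times were those after normexp of ECM2 (1.07), LOC646976 (0.70) and DGAT2 (-1.46), and those over probe means of ECM2 (1.08), ADM2 (1.05), NFYA (-0.89) and ZC3HAV1 (-1.01). Quantile normalization, no filter on dim probes and the authors' values gave 58, 53 and 61 probes at 6 h. Signal near background limits the dim rises, for which only lower bounds of the fold are given.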
